A study of Mus musculus with 8 samples.

Results

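The inducible acute phase proteins examined here are 10 secreted or membrane proteins, and liver cells switch on most of their genes in inflammation. They include the serum amyloid A proteins Saa1, Saa2, Saa3 and Saa4 and the orosomucoids Orm1, Orm2 and Orm3. The others are the lipocalin Lcn2, the serpin Serpina3n and the metalloreductase Steap4. The 10 genes were taken by gene symbol from the array's platform annotation, with the brightest probe set of each gene over the 8 arrays. Of the 10 genes, 9 had a probe set listed for them alone, 1 each, among 22180 genes of the array in all, and these 9 were among the 13449 genes bright enough to test. Saa1 was listed only on a probe set that also lists Saa2, so its values are given as those of a shared probe set and belong to neither gene alone. The RefSeq gene table also gives Saa1 and Saa2 as synonyms of each other, so older use of these names can mean either gene.

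Liver RNA came from male C57BL/6J mice, with 4 arrays of wild type littermates and 4 arrays of Tm6sf2 knock-ins. The knock-ins carry the E167K coding change of Tm6sf2, an endoplasmic reticulum protein of lipoprotein lipid loading. The study asked how this variant acts on glucose and lipid metabolism. Age was not given, and the labels conflict on food: the series text gives a high-fat diet for 20 weeks, while the notes on the arrays name 14 weeks on either chow or a fat-free feed high in sucrose. Which of these foods the mice had is therefore not settled. Expression was measured on whole-transcript arrays, as log2 values, and 1 unit of log2 is a doubling. Whether each array is a mouse of its own is not spelled out, so the p-values reflect only how these samples vary, which may be technical. In whole liver a change of RNA per cell cannot be told apart from a change in the number of cells of a type.

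The 8 arrays had medians of 3.73 to 3.80, and a probe set below an array's 40th percentile over single-gene probe sets (at least 3.46) was treated as dim there. The tissue label was checked against 10 hepatocyte markers, all of them measured, with mean levels of 12.56 to 12.60 on wild type and 12.52 to 12.60 on knock-in arrays. Knock-in replicate 3 stood apart in another way. Pancreatic acinar markers, which liver lacks, lay at 5.11 to 12.32 on that array (6 of 8 listed markers measured), and at 1.75 to 4.84 on the 6 arrays other than knock-in replicates 3 and 4. Ctrb1, a chymotrypsinogen, was at 12.32 on knock-in replicate 3 and at 7.04 on knock-in replicate 4, against at most 4.84 elsewhere. The mean of the 6 markers was 9.47 on knock-in replicate 3, 3.93 on knock-in replicate 4 and 2.64 to 3.13 on the rest. Results on the acute phase genes are therefore also given without knock-in replicate 3, or without both of these arrays.

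Acute phase genes are a hepatocyte's answer to cytokines. Interleukin-6 acts through its receptor and STAT3, interleukin-1 and tumour necrosis factor act through NF-kB and C/EBP factors, and glucocorticoids strengthen both arms. Serum amyloid A proteins travel on high-density lipoprotein, orosomucoids carry small lipophilic molecules in plasma, Lcn2 withholds iron from bacteria by binding their siderophores, and Serpina3n inhibits serine proteases. Saa4 is known as the constitutive serum amyloid A of liver, whereas Saa1, Saa2 and Saa3 are strongly inducible.

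The promoters of the genes with the largest changes, and that of Saa1 for comparison with its copy, are shown as the 250 bases before the RefSeq start, 5′ to 3′ on the gene's strand, from RefSeq's GRCm38.p6. Capitals mark each match to the C/EBP-type motif TTGCNNAA on either strand. Of the 10 genes, 9 had a promoter in the table, and Orm1 had none.
Saa1, chr7:46742981-46743230, minus strand: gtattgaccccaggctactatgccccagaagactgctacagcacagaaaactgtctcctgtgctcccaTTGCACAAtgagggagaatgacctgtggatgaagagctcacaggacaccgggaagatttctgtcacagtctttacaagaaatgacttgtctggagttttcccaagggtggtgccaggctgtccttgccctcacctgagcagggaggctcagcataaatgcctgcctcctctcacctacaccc
Saa2, chr7:46751583-46751832, plus strand: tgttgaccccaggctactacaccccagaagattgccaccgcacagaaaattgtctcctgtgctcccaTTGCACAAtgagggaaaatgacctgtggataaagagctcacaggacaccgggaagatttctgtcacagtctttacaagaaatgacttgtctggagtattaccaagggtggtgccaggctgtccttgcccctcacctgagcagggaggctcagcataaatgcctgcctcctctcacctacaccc
Saa3, chr7:46715677-46715926, minus strand: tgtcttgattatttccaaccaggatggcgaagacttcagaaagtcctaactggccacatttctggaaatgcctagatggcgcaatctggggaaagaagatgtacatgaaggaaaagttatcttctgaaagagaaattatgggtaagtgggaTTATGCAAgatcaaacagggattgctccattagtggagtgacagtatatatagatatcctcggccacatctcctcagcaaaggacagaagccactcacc
Orm2, chr4:63362199-63362448, plus strand: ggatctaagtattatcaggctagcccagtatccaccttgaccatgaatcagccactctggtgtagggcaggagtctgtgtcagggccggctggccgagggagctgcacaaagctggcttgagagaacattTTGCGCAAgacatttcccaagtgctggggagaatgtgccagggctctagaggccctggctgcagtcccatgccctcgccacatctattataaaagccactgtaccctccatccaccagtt
Orm3, chr4:63355908-63356157, plus strand: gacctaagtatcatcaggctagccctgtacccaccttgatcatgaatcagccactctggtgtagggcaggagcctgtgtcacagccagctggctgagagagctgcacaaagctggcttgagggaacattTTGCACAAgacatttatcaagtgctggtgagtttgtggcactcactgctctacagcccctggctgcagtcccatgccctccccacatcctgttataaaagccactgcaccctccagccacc
Lcn2, chr2:32387740-32387989, minus strand: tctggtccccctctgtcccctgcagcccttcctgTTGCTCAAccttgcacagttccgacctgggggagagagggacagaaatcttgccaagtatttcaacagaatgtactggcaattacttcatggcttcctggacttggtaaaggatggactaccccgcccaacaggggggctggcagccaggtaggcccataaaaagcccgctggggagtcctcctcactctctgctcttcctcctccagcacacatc
A C/EBP-type match was present in 8 of the 9 promoters, against 9.56% of 32851 RefSeq promoters of the same length. The 8 were those of Saa1, Saa2, Saa3, Saa4, Orm2, Orm3, Lcn2 and Steap4. In Saa1 and Saa2 the 8 letters were TTGCACAA in both, starting 182 and 183 bases before the start. In Orm2 and Orm3 they were TTGCGCAA and TTGCACAA, starting 120 and 121 bases before it. Saa4, the constitutive member, held 2 matches, so the letters did not separate it from the inducible members. The STAT palindrome TTCNNNGAA was found in 1 of 9, Steap4, as TTCCCGGAA (7.02% of all promoters), and the interleukin-6 element CTGGGAA also in Steap4 alone (9.10%). The NF-kB consensus, a pattern of 10 letters, some of them ambiguous, was likewise found in Steap4 alone (7.25%). Its 2 places read GGGATGCCCC and GGAAAACCCC on the gene's strand, and the second matched on the opposite strand. The glucocorticoid half-site AGAACA was in Orm2 and Serpina3n (16.1%), and the TATA box letters TATAAA in Orm2, Orm3 and Steap4 (12.4%). In Orm2 and Orm3 the TATAAA letters were on the gene's strand, starting 33 and 29 bases before the start. In Steap4 they were on the opposite strand, 215 to 210 bases before it. All motifs were searched on both strands, some matches can overlap, and a match is a description of the letters only.

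Saa1 and Saa2, and likewise Orm2 and Orm3, are close copies in these stretches, whereas Saa3 and Saa4 are not. Orm1 could not be compared. Saa1 and Saa2 were identical in 238 aligned bases with 11 mismatches and 2 gap positions (94.8% of aligned columns), whereas Saa2 and Saa3 matched in 52.4%, and Saa1 and Saa4 in 49.5%. Orm2 and Orm3 matched in 85.9%. In the GRCm38.p6 gene table the 4 Saa genes lie together on chromosome 7 in the order Saa3, Saa4, Saa1, Saa2, with a predicted gene and the pseudogene Saa-ps among them. The 3 orosomucoid genes lie together on chromosome 4 in the order Orm1, Orm3, Orm2, with 1 predicted gene among them. These stretches lie before the gene's start, and sequences of transcripts or probes were not compared. Values of Saa1, Saa2 and the orosomucoids are uncertain as to the copy, since binding of one copy's RNA to another's probes was not tested.

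Knock-in livers had higher mean values of all 9 measured genes, and 5 of them were at least 2-fold higher: Orm3, Saa2, Saa3, Orm2 and Lcn2. None of the 9 passed limma's test adjusted over all 13449 genes (adjusted p of 0.219 to 0.840). In that fit 9 genes passed, or 0.0669% of those tested. The 5 genes at a log2 change of 1 or more stand beside 0.402% of all tested genes at that size, and the same 5 had an unadjusted p under 0.05 in the upward direction, beside 6.01% of all tested genes. The 9 of 9 with a higher mean compare with 51.1% of all tested genes. The median change of the 9 was 1.01, and that of all tested genes was 0.0046. Without knock-in replicate 3, 5 of 9 had a change of 1 or more (0.349% of all tested genes in that fit) and 5 a higher mean at an unadjusted p under 0.05 (5.56%), and 0 of 9 passed adjustment. With knock-in replicates 1 and 2 only, these counts were 4 (0.535% of all tested genes) and 3 (5.55%), and the median change was 0.74. Since the members were chosen with earlier results of these data known, the counts describe and support nothing further.

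Among the serum amyloid A genes, Saa2 (probe set 17478195), a major acute phase apolipoprotein, had values of 6.45, 4.58, 5.47 and 6.75 on wild type replicates 1 to 4, and of 6.48, 7.42, 6.96 and 8.07 on knock-in replicates 1 to 4. The groups overlapped only at wild type replicate 4, which was above knock-in replicate 1. Its group means were 5.81 ± 0.99 and 7.24 ± 0.68 (log2, mean ± SD, n = 4 each), and the change was 1.42 (SE 0.49, limma adjusted p = 0.333), or 2.68-fold with a 95% interval of 1.24 to 5.83. Saa3 (17491193), which is also made outside the liver by macrophages and fat, had values of 6.42, 5.80, 5.92 and 7.01 on wild type arrays and of 7.76, 7.18, 6.91 and 7.59 on knock-in arrays. The groups overlapped only at wild type replicate 4, which was above knock-in replicate 3. The change was 1.07 (SE 0.28, adjusted p = 0.219), from 6.28 ± 0.55 to 7.36 ± 0.39, or 2.10-fold (1.35 to 3.29).

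The probe set that lists Saa1 together with Saa2 (17491205) was at 8.62, 8.12, 7.52 and 8.59 on wild type arrays and at 8.05, 9.09, 8.43 and 10.38 on knock-in arrays. Knock-in replicate 4 was the highest of the 8, while knock-in replicates 1 and 3 lay within the wild type range. Its change was 0.77 (SE 0.47, adjusted p = 0.592 over the 15211 listed probe sets tested). Its 95% interval, -0.30 to 1.85, included 0. Saa4 (17491199), the constitutive form, was at 11.89 to 12.33 on wild type and 12.26 to 12.46 on knock-in arrays, a change of 0.19 (SE 0.11, adjusted p = 0.574).

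The orosomucoids differed from each other in the same way. Orm3 (17414738) was at 5.85, 5.50, 2.66 and 5.40 on wild type arrays and at 7.10, 6.33, 5.95 and 7.17 on knock-in arrays. Every knock-in array was above every wild type array, and wild type replicate 3 lay alone, below its dim limit. The change of 1.79 (SE 0.65, adjusted p = 0.346), or 3.45-fold (1.24 to 9.63), was 1.05 without that array. Orm2 (17414747) was at 7.30, 6.62, 6.34 and 7.23 on wild type arrays and at 7.43, 7.79, 7.83 and 8.73 on knock-in arrays. The groups did not overlap, with knock-in replicate 4 highest and knock-in replicate 1 just above wild type replicate 1. Its change was 1.07 (SE 0.30, adjusted p = 0.253), from 6.87 ± 0.47 to 7.94 ± 0.55. Orm1 (17414729), the main orosomucoid of resting liver, lay between 11.49 and 11.79 on the wild type side and between 11.52 and 11.87 on the knock-in side, a change of 0.09 (SE 0.11, adjusted p = 0.840). Orm2 and Orm3 were the 2 of 9 genes whose groups did not overlap with the knock-in higher, beside 3.96% of all tested genes, and 0 of 9 lay apart with the knock-in lower, beside 3.2%. Without knock-in replicate 3 the former count was 4 of 9, beside 5.93%.

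Lcn2 (17383892), the siderophore-binding lipocalin, was at 8.93, 8.07, 7.41 and 8.11 on wild type arrays and at 9.77, 9.13, 8.36 and 9.30 on knock-in arrays. The groups overlapped at 1 array each, since wild type replicate 1 was above knock-in replicate 3. The change was 1.01 (SE 0.36, adjusted p = 0.338), from 8.13 ± 0.62 to 9.14 ± 0.58. Serpina3n (17278328), the protease inhibitor, was at 12.20 to 12.59 on wild type and 12.41 to 12.60 on knock-in arrays (change 0.08, SE 0.10, adjusted p = 0.831). Steap4 (17434490), a ferric and cupric reductase induced by inflammatory cytokines, was at 9.10 to 9.51 and 9.27 to 9.58 (change 0.16, SE 0.12, adjusted p = 0.649).

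**Figure D1:**
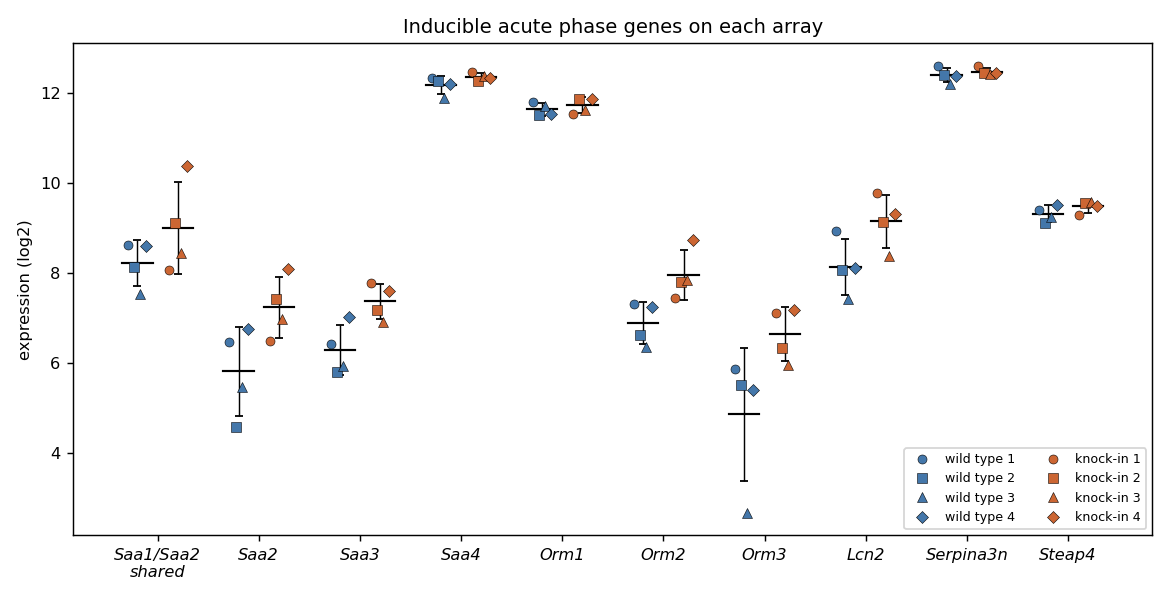
Log2 expression (y axis) of each gene, and of the probe set shared by Saa1 and Saa2 (x axis), on the 4 wild type (blue) and 4 knock-in (orange) arrays; symbols give the replicate number, and black lines and bars give mean ± SD. Orm2 and Orm3 show no overlap between the groups, Saa2, Saa3 and Lcn2 overlap at single arrays, and Saa4, Orm1, Serpina3n and Steap4 lie nearly level.

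The plot of values by array thus showed 2 kinds of member. The 5 genes with changes of 1.01 to 1.79 also varied most within the groups: their within-group SD was 0.48 to 1.13, above that of 95.1% to 99.8% of all tested genes, whose median was 0.19. Saa4, Orm1, Serpina3n and Steap4, with changes of 0.08 to 0.19, had within-group SDs of 0.13 to 0.16, above that of 27.6% to 41.5% of tested genes. The 95% intervals of these 4 changes all included 0, and their upper bounds were 0.31 to 0.44. The probe sets of Saa4, Orm1 and Serpina3n lay at 11.49 to 12.60, below array maxima of 13.59 to 13.66. Values this bright can be compressed. Whether they were so here, and the part of this in their small changes, was not tested. Steap4 ran from 9.10 to 9.58.

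**Figure D2:**
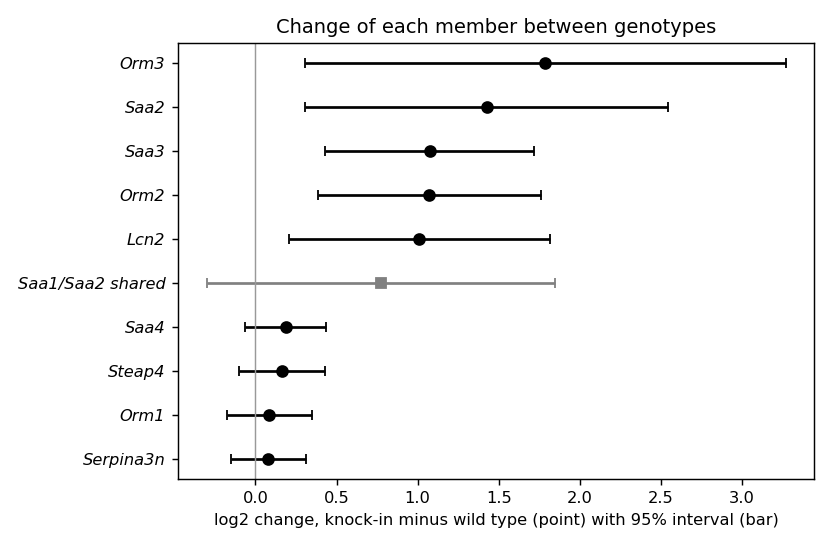
Log2 change from wild type to knock-in (x axis; points) with the model's 95% interval (bars) for the 9 genes and, in grey, the probe set shared by Saa1 and Saa2. All points lie above 0; the intervals of Orm3, Saa2, Saa3, Orm2 and Lcn2 lie above 0 and the others include it.

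Leaving out single arrays moved the sizes and changed no direction and no call of the 9. Without knock-in replicate 3, the changes of Orm3, Saa2, Lcn2, Saa3 and Orm2 were 2.02, 1.52, 1.27, 1.22 and 1.11. With knock-in replicates 1 and 2 only they were 1.86, 1.14, 1.32, 1.18 and 0.74, with adjusted p of 0.331 to 0.556. Over all single-array omissions, Saa2 ran from 1.01 to 1.74, Saa3 from 0.91 to 1.31, Orm2 from 0.81 to 1.24, Orm3 from 1.05 to 2.12 and Lcn2 from 0.77 to 1.28. The 4 small changes moved by more than 1.5 times: Serpina3n ran from 0.02 to 0.15, Orm1 from 0.04 to 0.15, Saa4 from 0.09 to 0.24 and Steap4 from 0.09 to 0.23.

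The level of the members was also read array by array. On a scale centred and scaled to SD 1 over the 8 arrays, the mean of the 9 genes was lowest on wild type replicate 3 (-1.45) and wild type replicate 2 (-0.99), and highest on knock-in replicate 4 (0.99). Wild type replicate 1, at 0.27, lay above knock-in replicate 3, at 0.25, so the groups overlapped. Single genes differed in which knock-in array was highest. Knock-in replicate 1 had the highest Lcn2, Saa3 and Saa4 values of the 8 arrays, together with the lowest knock-in values of Saa2, Orm2 and the shared Saa1 and Saa2 probe set. Knock-in replicate 4 had the highest Saa2, Orm2, Orm3, Orm1 and shared values, and the second highest knock-in values of Lcn2 and Saa3.

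**Figure D3:**
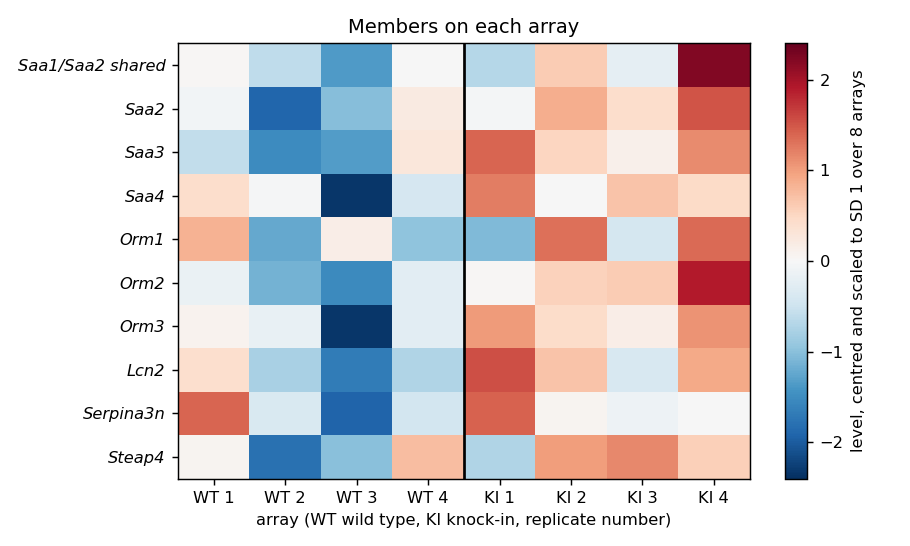
Level of each gene and of the shared probe set (rows) on each array (columns), centred and scaled to SD 1 over the 8 arrays; red is above and blue below the row's mean. Wild type replicates 2 and 3 are blue in most rows, knock-in replicate 4 is red in most rows, and knock-in replicate 1 is red for Saa3, Saa4, Orm3, Lcn2 and Serpina3n and blue for the shared probe set, Orm1 and Steap4.

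Pearson correlations were computed for all 45 pairs of the 9 genes and the shared probe set, over 8 arrays and on log2 values. They ran from -0.07 to 0.93 with a median of 0.60, and 44 were positive. By an exact two-sided permutation test over pairings, 16 pairs had an unadjusted p under 0.05, and 4 passed after Benjamini-Hochberg adjustment over the 45. These were Orm3 with Lcn2 (r = 0.89, permutation p = 0.000273, adjusted 0.0123; Spearman rho 0.93, permutation p = 0.00223, adjusted 0.0652), Saa2 with Orm2 (r = 0.91, permutation p = 0.00295, adjusted 0.0458; rho 0.88, permutation p = 0.00724, adjusted 0.0652), Saa2 with Steap4 (r = 0.86, permutation p = 0.00407, adjusted 0.0458; rho 0.81, permutation p = 0.0218, adjusted 0.122) and the shared probe set with Orm2 (r = 0.89, permutation p = 0.00362, adjusted 0.0458; rho 0.67, permutation p = 0.0831, adjusted 0.187). By rank, 0 pairs passed adjustment and 15 had an unadjusted p under 0.05. Leaving out the 2 arrays farthest from the median of the first-named member gave r of 0.94 (Orm3 with Lcn2), 0.94 (Saa2 with Orm2), 0.86 (Saa2 with Steap4) and 0.54 (shared probe set with Orm2). With the second-named member deciding which 2 arrays to leave out, r was 0.86, 0.93, 0.49 and 0.54 in the same order. The r of the shared probe set with Orm2 was thus lower without wild type replicate 3 and knock-in replicate 4 together. That of Saa2 with Steap4 was lower without the 2 arrays farthest in Steap4. How far each relation rests on these arrays cannot be told from this, since leaving out the farthest arrays also narrows the range. With wild type replicate 3 or knock-in replicate 4 left out alone, r of the shared probe set with Orm2 was 0.85 or 0.77.

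The correlations were also computed with the genotype difference removed. With each value taken as its deviation from its genotype's mean, the median r fell to 0.39, 37 of 45 pairs were positive, 7 had an unadjusted p under 0.05 by exact permutation within genotype, and 0 passed adjustment. The 4 pairs kept r of 0.79 (Orm3 with Lcn2; permutation p = 0.0208), 0.83 (Saa2 with Orm2; permutation p = 0.0347), 0.83 (Saa2 with Steap4; permutation p = 0.0417) and 0.93 (shared probe set with Orm2; permutation p = 0.00521), each with an adjusted permutation p of 0.234 to 0.268. Arrays were left out only for the correlations on log2 values, not for those on deviations. On log2 values, all 4 pairs passed adjustment without knock-in replicate 3. On the same log2 values, none passed with knock-in replicates 1 and 2 only. None passed without wild type replicate 3, knock-in replicate 2 or knock-in replicate 4 in turn. Only Orm3 with Lcn2 did without wild type replicate 2 or 4.

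On these deviations, 8 of the 10 series were set side by side as 2 sets chosen after the values were seen. Lcn2, Orm3, Saa4 and Serpina3n had r of 0.69 to 0.90 with each other, although the last 2 hardly differed between genotypes. Saa2, Orm2, Steap4 and the shared probe set had r of 0.44 to 0.93. Between the 2 sets r ran from -0.11 to 0.56. Saa3 belonged to neither, with r of 0.61 with Saa2, 0.59 with Lcn2 and 0.53 with Orm3, and Orm1 had r of 0.60 with Saa2 and -0.32 with Saa4. These values are on 8 arrays, share the same libraries and are a description. Lcn2, Orm3, Saa4 and Serpina3n were each at their lowest on wild type replicate 3. On log2 values, leaving that array out gave r of 0.42 (Orm3 with Serpina3n) to 0.91 (Orm3 with Lcn2) within this set. The deviations were not recomputed without it.

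**Figure D4:**
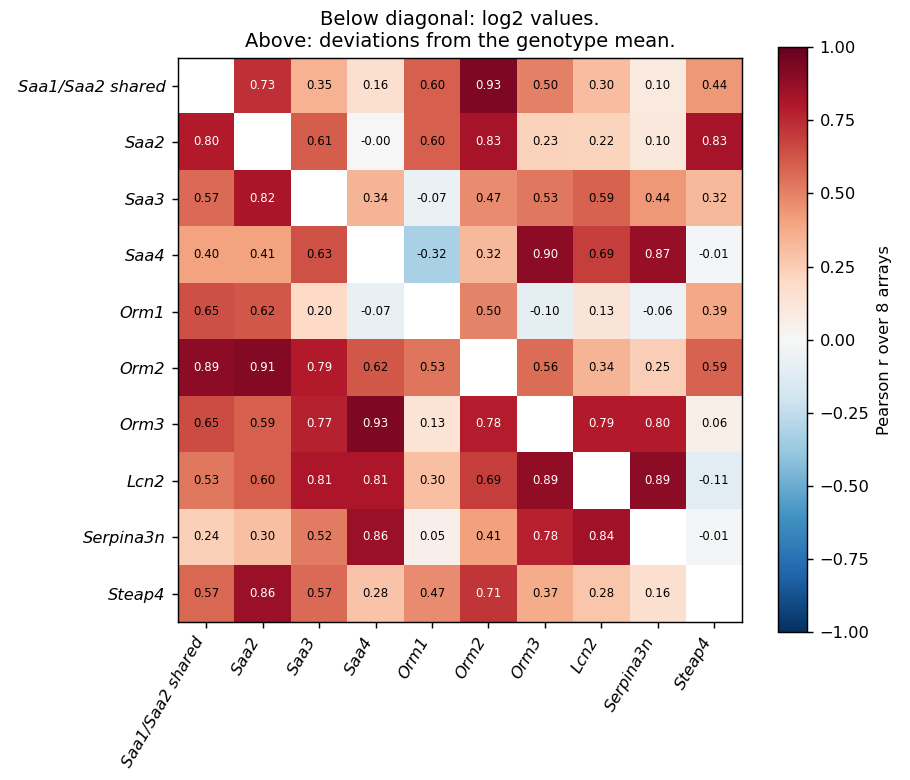
Pearson r over 8 arrays for each pair of genes or the shared probe set; cells below the diagonal use log2 values and cells above it use deviations from the genotype's mean. Orm3 with Lcn2 is at 0.89 below and 0.79 above, and Saa2 with Lcn2 at 0.60 below and 0.22 above.

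Genes with the most similar course over the 8 arrays were found by Pearson r with the mean of the 9 scaled genes, among all tested genes with a name other than a predicted one. The 6 highest were Smim4 (r = 0.99), Tmed3 (0.97), Eif3l (0.96), Tmprss4 (0.96), Ndrg3 (0.95) and Rtca (0.95), and the 4 lowest were Crkl, Bmp4, Tesmin and Prpf6, at -0.95 each. Tmed3 is a cargo receptor of the early secretory pathway and Eif3l a subunit of a translation initiation factor. Tmprss4 was nearly dim, at 3.30 to 4.30, and its lowest value, on wild type replicate 3, lay below that array's dim limit of 3.48. These r were picked as extremes on 8 arrays, among those of the 13449 tested genes that were neither members nor predicted genes, and carry no test. Among the members themselves, r with this mean, to which each contributes, was highest for Orm2 (0.92) and lowest for Orm1 (0.46). Of the 10 genes, 0 passed limma's test between genotypes, with changes of 0.19 to 0.38 in the upper 6 and of -0.46 to -0.16 in the lower 4.

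Other positive acute phase proteins were read from a list of their own. Of 25 listed genes, 20 were tested, and 0 passed over all genes; 1 was higher and 0 lower at an unadjusted p under 0.05 (6.01% and 5.29% of all tested genes), and the median change was 0.02 with a range of -0.21 to 0.36. Apcs, the serum amyloid P component and the main pentraxin of the mouse acute phase, had the smallest p, at 0.36 (SE 0.14, adjusted p = 0.383). Lbp, which hands bacterial lipopolysaccharide to its receptor, was at 0.21 (SE 0.11), Lrg1 at 0.21 (SE 0.11) and the metallothionein Mt2 at 0.24 (SE 0.15). Fibrinogen chains, haptoglobin, hemopexin, ceruloplasmin and Crp were at -0.07 to 0.06, with group means of 12.02 to 13.31, near the top of the scale. Negative acute phase proteins, which inflammation lowers, had 10 of 12 genes tested, 0 past either threshold and a median of 0.01. In this list Alb was at 0.04 (SE 0.07), Apoa4 at -0.04 (SE 0.10), Igf1 at 0.09 (SE 0.09) and the corticosteroid-binding globulin Serpina6 at 0.28 (SE 0.17, adjusted p = 0.574).

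The inducing cytokines were mostly dim in whole liver. Of 14, 7 lay below the filter, among them Il6, Osm, Lif and Il22, and 0 of the 7 tested passed over all genes, with 1 higher and 1 lower at an unadjusted p under 0.05 (6.01% and 5.29% of all tested genes). Il1b, one of several inducers of Saa and Orm genes in liver, was at 7.27, 7.75, 7.79 and 6.96 on wild type arrays and at 5.20, 5.88, 5.68 and 6.22 on knock-in arrays. The groups did not overlap, and the knock-in was the lower one, with a change of -1.70 (SE 0.25, adjusted p = 0.0552). Il18 was at 0.46 (SE 0.18, adjusted p = 0.363), Ctf1, a cytokine of the interleukin-6 family, at 0.27 (SE 0.13), and Clcf1 at -0.13 (SE 0.15).

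Of 23 receptors, kinases and transcription factors of the response, 20 were tested and 0 passed, with 1 higher and 1 lower at an unadjusted p under 0.05 (6.01% and 5.29% of all tested genes) and a median of 0.03. Il1r1, the signalling receptor of interleukin-1, was at 10.04, 9.30, 9.12 and 9.51 on wild type arrays and at 10.78, 10.22, 10.53 and 10.48 on knock-in arrays. Every knock-in array was above every wild type array, and the change was 1.01 (SE 0.20, adjusted p = 0.119). Il6st, the shared signalling subunit of interleukin-6 receptors, was at -0.22 (SE 0.09, adjusted p = 0.373), while Il6ra, the ligand-binding subunit, was at 0.44 (SE 0.21, adjusted p = 0.457). Cebpa was at 0.19 (SE 0.09). The transcription factors that define the list, Stat3, Rela, Cebpb and Cebpd, were at -0.06 to 0.24, each with an adjusted p of 0.586 or more.

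Of 14 feedback and immediate targets of STAT3 and NF-kB, all tested, 2 had a higher mean in the knock-in (Tnfaip3 at 0.12 and Pim1 at 0.05; 51.1% of all tested genes had a higher mean) and 12 a lower one. The median was -0.23, 0 passed over all genes, and 1, Socs1, was lower at an unadjusted p under 0.05 (5.29% of all tested genes). Socs1, a feedback inhibitor of JAK kinases, was at -0.49 (SE 0.15, adjusted p = 0.294). It was nearly dim, with group means of 3.97 on wild type and 3.48 on knock-in arrays. Knock-in replicates 1 (3.25) and 3 (3.23) lay below their dim limits of 3.47. Socs3, the feedback inhibitor of interleukin-6 signalling, was at -0.32 (SE 0.29), Junb at -0.65 (SE 0.32), Il4ra at -0.23 (SE 0.12) and Icam1 at -0.23 (SE 0.15). With knock-in replicates 1 and 2 only, 8 of the 14 were lower and the median was -0.09. Glucocorticoid targets had 8 of 10 means higher (51.1% of all tested genes), a median of 0.33, 0 past over all genes and 3 higher at an unadjusted p under 0.05 (6.01%). Fkbp5, a chaperone partner of the glucocorticoid receptor, was at 7.01, 6.66, 6.53 and 7.27 on wild type arrays and at 8.21, 7.96, 7.80 and 7.47 on knock-in arrays, without overlap (change 0.99, SE 0.20, adjusted p = 0.119). Klf9 was at 0.24 (SE 0.08), the clock gene Per1 at 0.53 (SE 0.17) and Tsc22d3 at 0.43 (SE 0.21). The mean of the 9 acute phase genes was highest on knock-in replicate 4. Among knock-in arrays, Fkbp5 and Per1 were lowest there and Klf9 second lowest, while Tsc22d3 was highest there, at 6.97. The relation of these targets to the acute phase genes was not tested.

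Without knock-in replicate 3, 0 genes of these 6 lists passed over all genes, and the list medians were 0.05 (other positive acute phase proteins), 0.01 (negative acute phase proteins), 0.05 (inducing cytokines), 0.07 (receptors, kinases and transcription factors), -0.14 (feedback targets) and 0.28 (glucocorticoid targets).

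**Figure D5:**
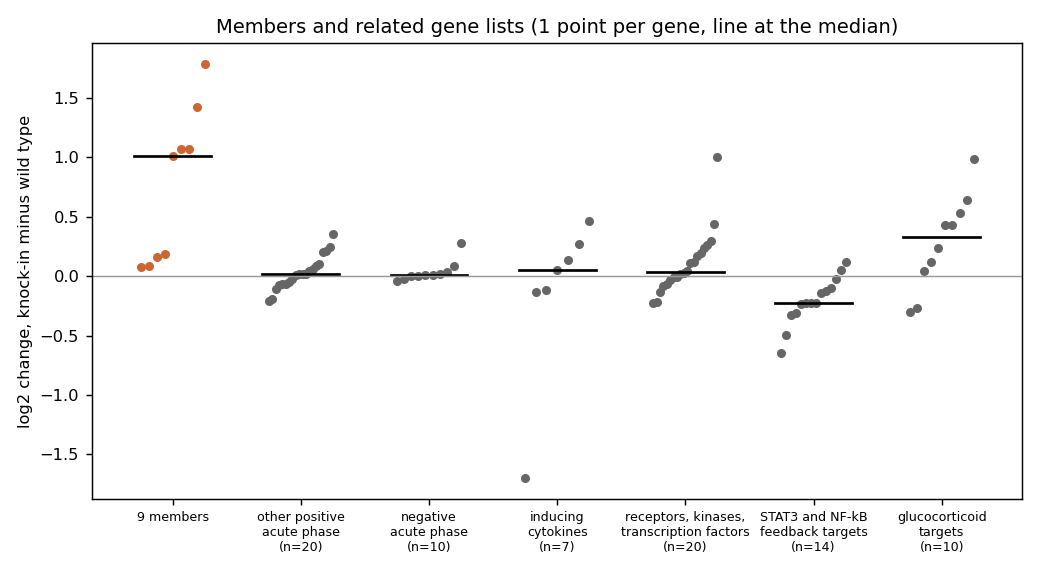
Log2 change from wild type to knock-in (y axis) of the 9 genes (orange) and of each tested gene of 6 related lists (grey), 1 point per gene, with a black line at the median. The 9 genes have a median of 1.01, and the medians of the lists lie between -0.23 and 0.33.

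Markers of the other cells that can make these proteins were read on the same arrays. Of 11 neutrophil markers, which bear on Lcn2, 5 were bright enough to test and 0 passed. Another 4 (S100a8, Ly6g, Camp and Ngp) lay below the dim limit on all 8 arrays, and the list's mean level was 3.44 to 3.55 on wild type and 3.32 to 3.62 on knock-in arrays. The 10 Kupffer cell markers had mean levels of 8.06 to 8.82 and 8.02 to 8.60. Of these, 0 passed over all genes and 1 was higher at an unadjusted p under 0.05, beside 6.01% of all tested genes. The mean levels of 9 measured monocyte-derived macrophage markers were 4.68 to 5.07 and 4.66 to 5.07. Adipocyte markers (6 of 8 measured) were at 5.07 to 5.20 and 4.96 to 5.33. Knock-in replicate 3, which carried the highest pancreatic acinar levels, had the lowest Lcn2, Saa3 and Orm3 values of the knock-in group, the highest Steap4 value of the 8 arrays, and the second highest knock-in values of Orm2 and Saa4. The part of the pancreatic signal in these values was not tested.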

How the data were processed

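Liver RNA was hybridised to 8 whole-transcript arrays after biotin labelling from 400 ng, per the labels' protocols. The authors deposited log2 values for 41345 probe sets on every array, for which the submitters' processing notes name RMA and limma without versions. No genome build is stated in the sources used here. Quantile steps of RMA would hide a change shared by most genes, and values of dim and very bright probe sets can be compressed. Arrays have no read depth, and their number limits the precision.

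Of the probe sets, 23521 list 1 gene symbol, 1814 several and 16010 none; 23328 symbols matched RefSeq's GRCm38.p6 table by Entrez identifier and 0 changed. A gene's brightest probe set was kept, and a gene was tested if at least 4 arrays lay above the array's 40th percentile. Knock-in was compared with wild type with limma 3.58.1 in R 4.3.3 (two-sided, Benjamini-Hochberg over 13449 genes, threshold 0.05), tested on simulated data. Changes are knock-in less wild type on the log2 scale, and n is 4 arrays per group. Correlations used exact permutation of 40320 pairings, or 576 within genotypes (Python 3.11.15). The genes and lists were chosen with earlier results of these data known. All 9 genes are named, with up to 4 genes per list by the smallest p, and the 6 most and 4 least similar genes; further list genes are given because they define their list. The pancreatic marker comparison and the fits without those arrays were added after seeing the data.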

Additional observations from a re-analysis of the deposited data

Results flagged for a closer look

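Within groups of 4 arrays, a lone array was called when its gap to the nearest value, over the group's range, exceeded Dixon's critical value, which chance does in about 1 of 20 groups; 88 groups of the named genes were examined and 6 were called. Orm3 was at 2.66 on wild type replicate 3, with the nearest wild type array at 5.40. Serpina3n was at 12.60 on knock-in replicate 1, with the nearest knock-in array at 12.44. Alb was at 13.57 on knock-in replicate 1, below 13.65 on the nearest. Il6ra was at 9.37 on knock-in replicate 4, below 9.83. Klf9 was at 10.64 on wild type replicate 1, above 10.45. Tsc22d3 was at 6.97 on knock-in replicate 4, above 6.43.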

How the results depend on the processing

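Across 17 alternatives, the 9 genes stayed higher in the knock-in and 0 passed the threshold; adjusted p ran from 0.130 to 0.973. Over all genes tested, those past the threshold went from 9 to 2 with no filter, 32 with the stricter filter, 73 with the trended and robust prior, 25 with array weights, 24 with the mean of probe sets, 38 with all probe sets one by one and 1 with knock-in replicates 1 and 2 only, and ran from 1 to 12 on leaving out single arrays. With the replicate number as a block it was 2, of which 1 was among the 9, and 0 of the 9 members passed; since the numbers were not found to pair the arrays (1 of 4 wild type arrays correlated best with its own number), this is given only here. The median pairwise correlation of 0.60 moved to 0.39 on deviations from the genotype mean, to 0.43 without the 2 arrays farthest from the median, and ran from 0.49 to 0.72 without single arrays; the cause was not tested. Each of the 9 genes had 1 probe set of its own, so averaging probe sets could not change its value. What limits these results is 4 arrays a group: the within-group SDs of Saa2, Orm3, Lcn2, Orm2 and Saa3 were 0.48 to 1.13. The SE of the changes was 0.28 to 0.65 for these 5 genes. Signal over background limited Orm3, below the dim limit on 1 array, and 7 of the 14 cytokines. It also limited Socs1, below the dim limit on knock-in replicates 1 and 3, and Tmprss4, below it on wild type replicate 3.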
